A study of Mus musculus with 2 samples.

Results

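The cell cycle genes described here are 10 genes known to set how often red cell precursors divide and when they stop: Ccnd1, Ccnd2, Ccnd3, Cdk6, E2f2, E2f4, Cdkn1a, Cdkn1b, Cdkn2c and Myc. They were chosen by name, 10 of 21938 protein-coding genes, and every EP300 peak summit within 50 kb of any annotated transcription start site of one of them was taken, which gave 61 of the 26844 summits analysed. The study profiled EP300 by chromatin immunoprecipitation sequencing (ChIP-seq) in newborn mouse liver of strain B6NCrl, age 0 days, sex not collected, with no transgene or treatment named. There was 1 group of 2 replicates and no second condition. The biosample and the donor label are the same for both replicates, so their spread reflects libraries and immunoprecipitations rather than animals by these labels. The sources used here do not give whether the tissue was from 1 animal or pooled.

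EP300 acetylates histones, and it is brought to enhancers and promoters in use by the transcription factors bound there. D-type cyclins bind and activate the kinase encoded by Cdk6, which phosphorylates the retinoblastoma protein and so releases E2F factors to switch on genes of DNA replication, while the CDK inhibitors Cdkn1a, Cdkn1b and Cdkn2c hold the kinases back. In the fetal and newborn liver of mice, erythroblasts pass through a set of rapid divisions before they leave the cell cycle and lose the nucleus, and in mouse erythroblasts Ccnd3 with Cdk6 is known to set the number of those divisions. Myc drives growth of the early precursors and is shut down as they mature.

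The DNA under the strongest summits is shown first, since the results turn on which genes held strong summits and on the short sequences at them. Each line gives 50 bases on either side of a summit, from the GRCm38 reference genome of RefSeq (the mm10 assembly), forward strand, 5′ to 3′. Capitals mark words bound by GATA factors (AGATAA, or the same with T as its first base, G as its last base or both, read on either strand) and the E-boxes CAGCTG and CAGATG, the words of TAL1 and its partners.
Ccnd3 strongest summit, chr17:47535934-47536034: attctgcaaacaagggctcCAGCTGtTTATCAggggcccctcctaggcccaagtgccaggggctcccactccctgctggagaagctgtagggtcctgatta
Ccnd3 near the 5′ end, chr17:47508116-47508216: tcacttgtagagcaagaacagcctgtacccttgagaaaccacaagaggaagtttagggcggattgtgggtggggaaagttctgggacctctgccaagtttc
Cdk6 strongest summit, chr5:3497657-3497757: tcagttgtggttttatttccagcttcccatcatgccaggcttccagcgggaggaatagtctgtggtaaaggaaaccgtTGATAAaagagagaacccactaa
E2f2 strongest summit, chr4:136178076-136178176: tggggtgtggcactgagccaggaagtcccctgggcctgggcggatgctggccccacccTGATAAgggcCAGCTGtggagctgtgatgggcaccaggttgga
E2f4 strongest summit, chr8:105300109-105300209: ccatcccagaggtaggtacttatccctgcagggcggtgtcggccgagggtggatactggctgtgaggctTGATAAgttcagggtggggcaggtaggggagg
Cdkn1a strongest summit, chr17:29094650-29094750: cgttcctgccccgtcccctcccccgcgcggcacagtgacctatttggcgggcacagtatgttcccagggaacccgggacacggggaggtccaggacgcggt
Cdkn1b strongest summit, chr6:134951501-134951601: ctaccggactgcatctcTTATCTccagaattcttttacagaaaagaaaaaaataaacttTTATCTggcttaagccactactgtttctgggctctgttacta
Myc strongest summit, chr15:61984924-61985024: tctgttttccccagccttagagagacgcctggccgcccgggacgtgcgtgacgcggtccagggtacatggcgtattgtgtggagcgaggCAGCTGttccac
The strongest summits inside Ccnd3, E2f2, Cdk6 and E2f4 and the one downstream of Cdkn1b held a GATA word, and those at the Cdkn1a and Myc promoters held none. The strongest summits of Ccnd1 and Cdkn2c, not shown here, held none either. The second Ccnd3 summit shown, nearly as strong as the first, held neither a GATA word nor either E-box.

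Of the 10 genes, 9 had at least 1 summit within 50 kb of a start site and Ccnd2 had none. Among all protein-coding genes 65.9% had one at all, so this count alone says little about the cell cycle genes. Within 10 kb the count was 7 of 10, against 41% of all genes, and within 1 kb it was 5 of 10, against 23.8%. Any annotated start counted, here and for all genes, and within 1 kb Ccnd3 and E2f4 counted through internal starts only. The signal value is the authors' own number for each peak, taken from the optimal list that they made from both replicates, and its scale is not stated. The 61 summits had a median signal of 43.9, with quartiles of 29.2 and 84.2. All 26844 summits had a median of 38.3, with quartiles of 26.3 and 63.7. A 95% order-statistic interval for the median near the 10 genes was 37.5 to 56.0, which covers the counting of peaks only and takes in the value of all peaks. The median was 42.0 over the 43 summits outside Ccnd3. Summits near these genes and all summits therefore had similar medians. The upper part of the range was higher near these genes, mostly through Ccnd3. The 90th percentile was 153.6 near the 10 genes and 121.8 over all summits, and it was not computed without Ccnd3. The median number of summits per gene was 4.5 in the 10 genes, against 2 in all genes, and per 100 kb of window searched it was 4.18 against 1.07. The strongest summit per gene had a median of 96.7 over the 9 genes, against 68.3 over the 14461 genes with a summit. Of the 61 summits, 11 (18.0%) were in the strongest 10% of the list. Most of these 11 were those of Ccnd3. The rest were the strongest summits of E2f2, E2f4 and Cdk6 and the second of E2f4. Whole liver holds several cell types, so a weaker signal in all cells and a signal in fewer cells cannot be told apart.

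The tissue and the lists had these features in common for every gene below. The lists hold no read counts, so depth is unknown. There were 300000 peaks in the list of either replicate, and 23700 in the conservative list. Against the 41% of all genes with a summit within 10 kb, 5 of 5 erythroid marker genes had one, as did 4 of 4 hepatocyte and 3 of 3 endothelial markers, while macrophage and lymphoid markers had 1 of 3 each and neuron markers 0 of 2. Near the markers the median of the strongest summits was 182 in the erythroid list, 51.2 in the hepatocyte list and 46.7 in the endothelial list. The macrophage and lymphoid lists had 1 gene each with a summit, Cd68 at 54.0 (nearest gene Eif4a1) and Cd3d at 22.4.

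**Figure D1:**
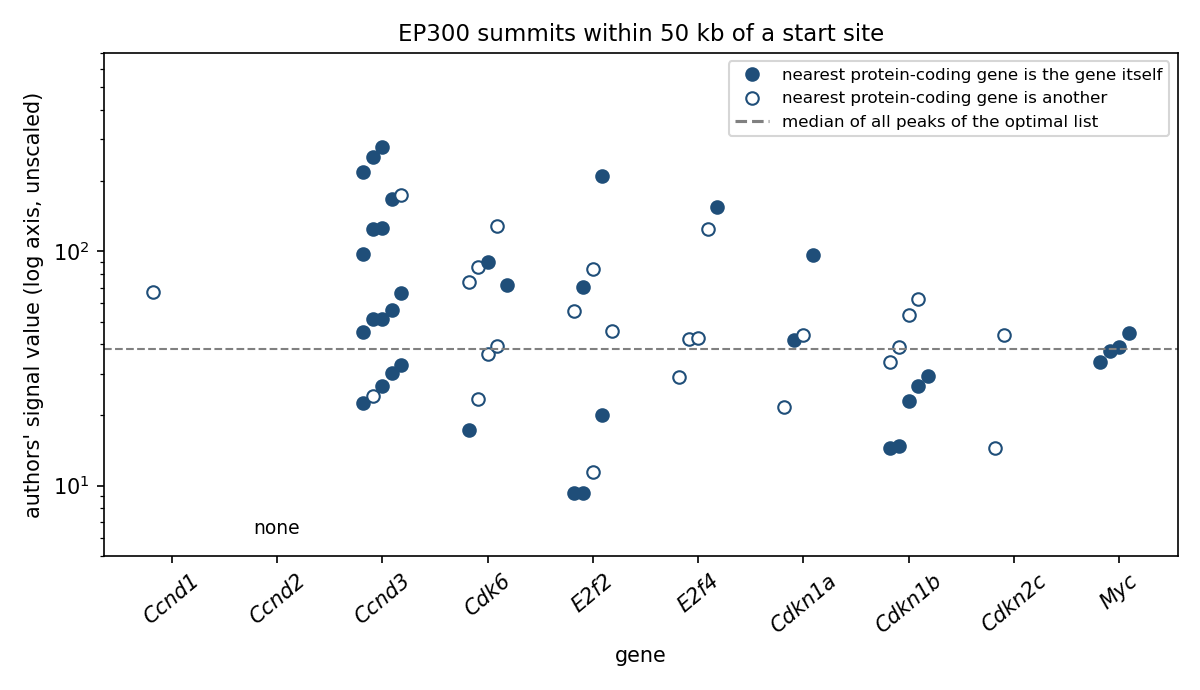
Signal value of each of the 61 summits by gene, on a log axis in the authors' unscaled units. Filled points have the gene itself as nearest protein-coding gene and open points another gene, the dashed line is the median of all summits (38.3), and Ccnd2 has no point.

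The D cyclins differed most from each other. Ccnd3 (ENSMUSG00000034165.16, chr17:47505051-47599691, plus strand) had 18 summits, Ccnd1 had 1 and Ccnd2 had 0. Only 61 of all protein-coding genes, 0.278%, had 18 or more. Ccnd3 is a long gene of 94.6 kb with 19 annotated start sites, and 192.1 kb lay within reach of them. Counted per 100 kb it had 9.37 summits, and 2.71% of genes were as dense. The 18 summits formed 16 regions once overlapping peaks were joined.

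The strongest Ccnd3 summit, at position 47535984, had a signal of 278 in the optimal list, where it ranked 609. It had 181 in replicate 1 (rank 541) and 99.4 in replicate 2 (rank 663). It lay in an intron, 30.9 kb from the gene's 5′ end. A second intronic summit, at 47508166 and 2.93 kb from the nearest start site, had a signal of 252 in the optimal list, 163 in replicate 1 and 88.0 in replicate 2. Another, at 47578837 in an exon of retained-intron transcripts, had 217 in the optimal list, 133 in replicate 1 and 84.8 in replicate 2. These summits were high in both replicates. No summit lay within 1 kb of the gene's annotated 5′ end. The 4 promoter summits, by the rule of 1 kb from the start of a protein-coding transcript, all lay at internal starts near the 3′ end of the gene and were weaker, at 56.0, 30.2, 51.2 and 26.5.

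The remaining strong Ccnd3 summits were spread along the gene. The summit at 47568552 had a signal of 168 in the optimal list, 106 in replicate 1 and 61.2 in replicate 2. The summit at 47511311 had 126 in the optimal list, 84.4 in replicate 1 and 42.2 in replicate 2. The summit at 47598318 had 124 in the optimal list, 82.7 in replicate 1 and 38.7 in replicate 2. Past the 3′ end, a summit at 47617859 in an intron of Med20, which encodes a Mediator subunit, had 174 in the optimal list, 113 in replicate 1 and 59.7 in replicate 2. Where summits within 12 kb of each other were joined into clusters, 14790 in all, the 9 summits from 47568552 to 47598318 summed to 757 and ranked 141. The 5 summits from 47508166 to 47523523 summed to 587 and ranked 264. Both clusters were thus within the top 0.953% and 1.78% of clusters by summed signal. The weakest summits of the gene were 24.2 at 47464767, 40.3 kb upstream and within AI661453 (nearest start 1700001C19Rik), and 22.6 at 47538255.

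Ccnd1 (ENSMUSG00000070348.5, chr7:144929931-144939925, minus strand) had a single summit, 23.1 kb from its nearest start site. It had a signal of 66.8 in the optimal list, 51.8 in replicate 1 and 13.1 in replicate 2. It lay at the promoter of the neighbouring gene LTO1, 0.006 kb from that gene's start, so that the Ccnd1 gene and its own promoter held none.

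Ccnd2 (ENSMUSG00000000184.12, chr6:127125162-127152193, minus strand) was the 1 gene with no summit in the optimal list. The nearest summit of that list lay 169.1 kb away and had a signal of 414, with Parp11 as the nearest protein-coding gene. The longer lists did hold peaks within 50 kb of Ccnd2, all weak. Replicate 1 had 18, the strongest at 12.5 (rank 35114, 0.44 kb from a start site), and replicate 2 had 10, the strongest at 5.92 (rank 60655, 4.04 kb away). The list called on both replicates together had 10, the strongest at 14.5 (rank 47807). Of the 18 peaks in replicate 1, 6 overlapped a peak of replicate 2. Ccnd2 was therefore below what the optimal list retained, which is not the same as no EP300.

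**Figure D2:**
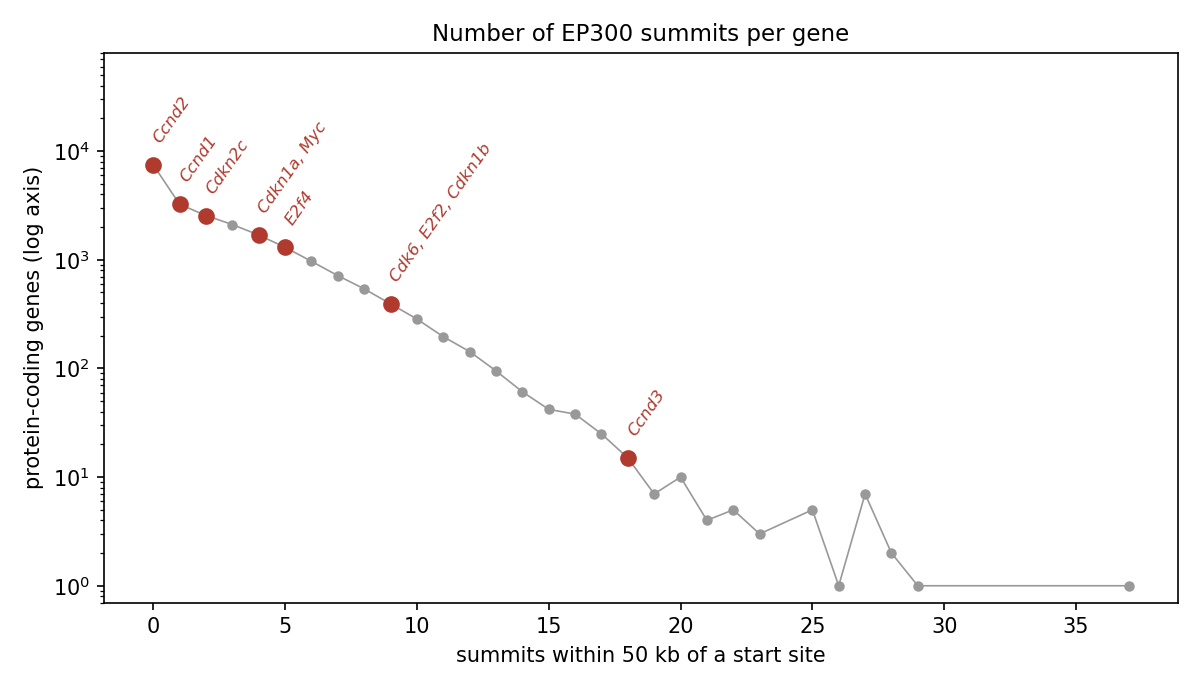
Number of protein-coding genes (log axis) by their number of EP300 summits within 50 kb of a start site, in grey, with the 10 cell cycle genes in red. Ccnd3, with 18 summits, stands in the tail that holds 0.278% of genes, while Ccnd2 and Ccnd1 stand at 0 and 1.

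Cdk6 (ENSMUSG00000040274.11, chr5:3341485-3531008, plus strand), the kinase partner of the D cyclins, had 9 summits, all in its introns. Of all genes 6.1% had 9 or more, and 17.9% held summits at least as densely; the window of Cdk6, at 202.8 kb, was the longest of the 10. The strongest, at 3497707, had a signal of 128 in the optimal list (rank 2517), 89.7 in replicate 1 and 41.0 in replicate 2. The next, at 3362323, had 90.1 in the optimal list, 63.6 in replicate 1 and 27.4 in replicate 2. The one after it, at 3502732, had 85.3 in the optimal list, 57.0 in replicate 1 and 29.2 in replicate 2. The order of these 3 was not the same in both replicates, since the last 2 of them changed places in replicate 2. The other 6 had signals of 17.3 to 74.0. Of the 9, 6 lay in a row from 3483612 to 3514920, far inside the gene, summing to 387 and ranking 689 of 14790 clusters, and their nearest protein-coding start was that of Fam133b. These 6 were within 50 kb only of the start of Cdk6-206, a retained-intron transcript, so that with the starts of protein-coding transcripts alone Cdk6 had 3 summits. No summit lay within 10 kb of a Cdk6 start site; the nearest was 10.2 kb away and had 71.7.

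E2f2 (ENSMUSG00000018983.9, chr4:136172394-136196057, plus strand) encodes an E2F factor whose loss in mice disturbs the maturing red cell. It had 9 summits, and 4.13% of genes held summits as densely. The strongest, at 136178126 in an intron and 5.73 kb from the 5′ end, had a signal of 210 in the optimal list (rank 1120), 113 in replicate 1 (rank 1539) and 91.0 in replicate 2 (rank 804). No other E2f2 summit came near it in either replicate. The intronic summit at 136189990, nearest to the coding start of Asap3, had 84.2 in the optimal list, 51.4 in replicate 1 and 33.5 in replicate 2. The summit at 136174968 had 70.4 in the optimal list, 57.0 in replicate 1 and 17.5 in replicate 2. The promoter summit itself, 0.694 kb upstream of the 5′ end, was weak, with 19.9 in the optimal list, 14.4 in replicate 1 and 5.43 in replicate 2. A pair of adjoining summits at 136177377 and 136177581, with 9.33 and 9.29, were the weakest of the 61. Of the remaining summits, 55.6 and 11.4 lay near Id3, which encodes an inhibitor of DNA-binding helix-loop-helix factors, and 45.9 lay in an intron of Asap3.

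E2f4 (ENSMUSG00000014859.9, chr8:105297663-105305370, plus strand) encodes the repressive E2F that mouse fetal erythroid cells need to multiply. It had 5 summits, and 22.2% of genes had as many. The strongest, at 105300159 in an intron and 2.50 kb from the 5′ end, had a signal of 154 in the optimal list (rank 1891), 111 in replicate 1 (rank 1583) and 38.8 in replicate 2 (rank 3055). The second, at 105323349 in an exon of the neighbour Lrrc29, had 124 in the optimal list, 79.2 in replicate 1 and 42.9 in replicate 2. The summit inside E2f4 was thus the higher in replicate 1 and the lower in replicate 2, so their order was not settled between replicates. The other 3 had 29.2, 42.1 and 42.5, and their nearest protein-coding start was that of Elmo3. The E2f4 locus is gene-dense, and only 1 of its 5 summits had E2f4 as the nearest protein-coding gene.

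**Figure D3:**
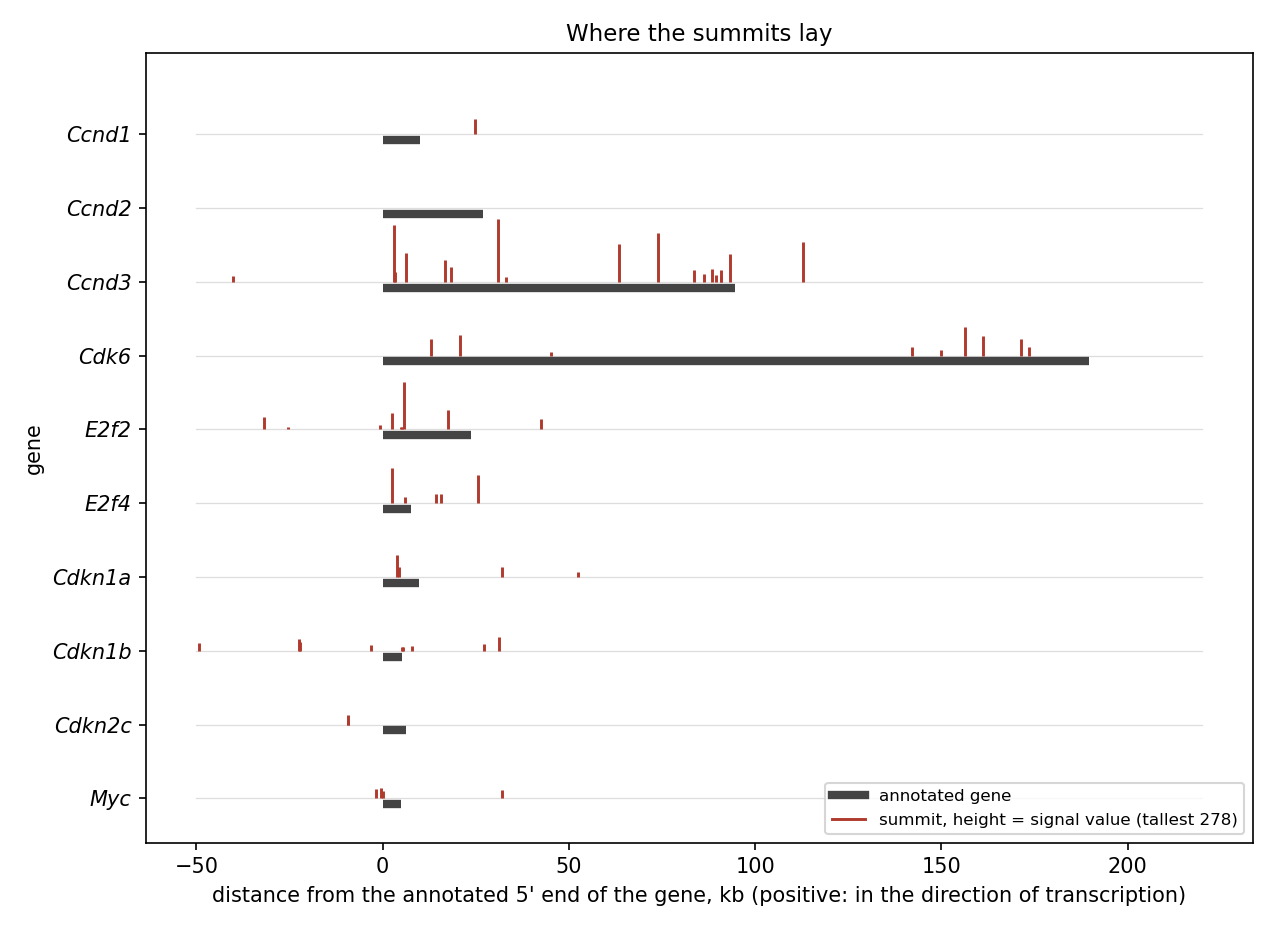
Place of the summits along the 10 genes, as distance in kb from the annotated 5′ end in the direction of transcription, with the gene body as a grey bar and the height of each red line scaled to signal (tallest 278). Summits run along the whole of Ccnd3, form 2 groups inside Cdk6, and in E2f4 and Cdkn1a lie both within the gene and past its 3′ end.

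The strongest summits of the 3 CDK inhibitors, at 96.7, 62.7 and 43.9, all stood below those of Ccnd3, E2f2, E2f4 and Cdk6. Cdkn1a (ENSMUSG00000023067.14, chr17:29090976-29100727, plus strand), the inhibitor induced by p53, had 4 summits. The strongest, at 29094700 and 0.919 kb from the start of a protein-coding transcript, had a signal of 96.7 in the optimal list, 65.3 in replicate 1 and 30.2 in replicate 2. A neighbour at 29095405 had 42.0 in the optimal list, 43.6 in replicate 1 and 5.43 in replicate 2, a wide gap between the replicates. The other 2, with 43.7 and 21.8, lay in introns of Rab44, a small GTPase gene. The weaker of these, at 29143456, was the only one of the 61 without a matched peak in replicate 2, and it had 20.5 in replicate 1.

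Cdkn1b (ENSMUSG00000003031.14, chr6:134920401-134925513, plus strand), the inhibitor that accumulates as erythroblasts stop dividing, had 9 summits in 7 regions. It had many but weak summits: 3.30% of genes were as dense, while 35.5% had a strongest summit at least as high. The strongest, at 134951551 in an exon of Lockd, a noncoding RNA gene just downstream, and nearest to the protein-coding start of Apold1, had a signal of 62.7 in the optimal list, 44.5 in replicate 1 and 17.0 in replicate 2. The next, at 134898041 by the promoter of Gpr19, an orphan receptor gene upstream, had 53.4 in the optimal list, 46.8 in replicate 1 and 20.6 in replicate 2. The Gpr19 summit was the higher in each replicate taken alone, so the order of these was not that of the optimal list. A summit 0.751 kb from the start of Lockd had 23.0 in the optimal list, 10.2 in replicate 1 and 13.1 in replicate 2. The one nearest to the Cdkn1b start, 3.20 kb upstream, had 26.7 in the optimal list, 16.9 in replicate 1 and 8.34 in replicate 2. The other 5 had 14.5 to 39.0.

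Cdkn2c (ENSMUSG00000028551.14, chr4:109660876-109667189, minus strand), an inhibitor of the D cyclin kinases, had 2 summits of 1 region, 9.23 kb upstream. The stronger had 43.9 in the optimal list, 27.8 in replicate 1 and 13.4 in replicate 2, and the other had 14.5 and matched the same replicate peaks. Both stood at the promoter of Faf1, the divergent neighbour, so that Cdkn2c like Ccnd1 had no summit of which it was the nearest gene.

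Myc (ENSMUSG00000022346.15, chr15:61985391-61990374, plus strand), a transcription factor of cell growth, had 4 summits of much the same height. The strongest, 0.417 kb upstream of the 5′ end, had 44.8 in the optimal list, 29.2 in replicate 1 and 11.8 in replicate 2. The summit in exon 1, 0.004 kb from a start site, had 33.7 in the optimal list, 25.7 in replicate 1 and 7.51 in replicate 2. One 1.76 kb upstream had 39.2 in the optimal list, 25.2 in replicate 1 and 10.3 in replicate 2. The last, 30.0 kb downstream of the nearest start, had 37.5 in the optimal list, 27.3 in replicate 1 and 10.7 in replicate 2. In both replicates all 4 stayed within a narrow band. Of all protein-coding genes, those without a summit included, 47.4% had a strongest summit at least as high as that of Myc. Its 44.8 stood below the median strongest summit of the 14461 genes with a summit, 68.3.

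By the signal of the strongest summit, the order of the genes was Ccnd3, E2f2, E2f4, Cdk6, Cdkn1a, Ccnd1, Cdkn1b, Myc and Cdkn2c. The share of all protein-coding genes, with or without a summit, at least as high was 4.33% for Ccnd3, 8.01% for E2f2 and 13.0% for E2f4. It was 16.7% for Cdk6 and 23.4% for Cdkn1a. Replicate 1 alone gave the same order. Replicate 2 kept the first 5 genes in that order, but there Ccnd1, at 13.1, stood below Cdkn1b (20.6) and Cdkn2c (13.4), and Myc was last at 11.8. The order of the lower 4 genes was thus not settled between replicates. The rule reached to 50 kb, and the summit just inside it, at Cdkn1b, was 49.3 kb away and had 33.8. The summits just outside were 50.2 kb from a Ccnd3 start with 54.9 and 51.0 kb from a Cdk6 start with 51.2.

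Of the 61 summits, 60 (98.4%) had an overlapping peak in both replicate lists, against 95.7% of all summits. Both peaks were among the strongest 26844 of their lists for 42 summits (68.9%), against 67.9% of all. A peak with the same start and end was in the conservative list for 44 summits (72.1%, against 74.4%). Peaks with other bounds were not counted there, and the conservative list itself held 52 summits within 50 kb of the 10 genes. Signals were higher in replicate 1, and the sources give no common scale for both lists. The median log2 ratio of replicate 1 to replicate 2 was 1.01 near the 10 genes (SD 0.64) and 0.95 over all summits (SD 0.65). Over the 55 distinct pairs of peaks near the 10 genes Spearman's rho between replicates was 0.816, and it was 0.735 over 23666 pairs of the whole list. These are correlations across peaks, which share libraries and neighbourhood and are not independent replicates. The optimal list was itself filtered for agreement between the replicates, so these shares and correlations describe retained peaks and do not measure reproducibility.

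**Figure D4:**
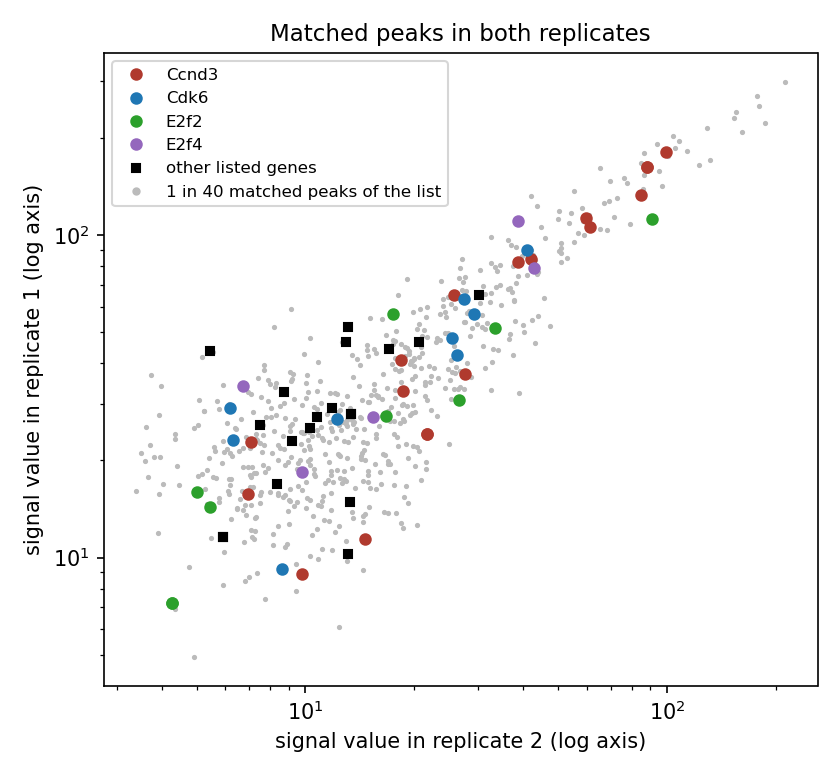
Signal value of matched peaks in replicate 1 against replicate 2 (both log axes, authors' unscaled units), coloured by gene, over 1 in 40 matched peaks of the list in grey. The Ccnd3 and E2f2 summits at the top right are high in both replicates.

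By place, 35 of the 61 summits lay in introns (57.4%), against 44.0% of all summits. Intergenic summits were 9 (14.8%), against 29.9%. Promoter summits were 13 (21.3%) and exonic ones 4 (6.56%), against 20.9% and 5.22% of all. All summits include those far from any gene, while the rule took only summits near start sites, so these shares are not like for like. The 61 windows of 101 bases had a median GC content of 50.5%, against 47.5% in all windows. The summit base was in a repeat masked in the reference in 14 cases (23.0%), against 9.35% of all. The sources used here do not give the handling of reads that align to several places. For 36 summits the nearest protein-coding gene was the listed gene itself, with a median signal of 45.1, and for the other 25 it was a neighbour, with a median of 43.7.

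Transcription factors read short DNA words, and 16 words or sets of words, of erythroid, hepatocyte, cell cycle and widely expressed factors, were searched within 50 bases of each summit, on both strands. A GATA word stood at 23 of the 61 summits (37.7%, 95% Clopper-Pearson interval 25.6 to 51.0, for counting only), against 40.3% of all. The GATA words followed the signal. In the strongest 10% of the list 9 of 11 summits near these genes held one (81.8%), against 80.2% of all summits in that class. In the weaker 50% it was 3 of 23 (13.0%), against 29.5%. Both strong summits without one lay in Ccnd3, at 47508166 and 47511311. By gene, GATA words were found at 7 of 18 summits near Ccnd3, 6 of 9 near Cdk6, 3 of 9 near E2f2, 3 of 5 near E2f4, 2 of 9 near Cdkn1b, and 1 of 4 near each of Cdkn1a and Myc. By place, they were at 0 of 13 promoter summits, against 18.0% of all promoter summits, at 4 of 4 exonic ones, against 42.4%, at 17 of 35 intronic ones, against 49.1%, and at 2 of 9 intergenic ones, against 42.6%.

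The E-boxes CAGCTG and CAGATG were found at 16 summits (26.2%, interval 15.8 to 39.1), against 16.5% of all. The KLF-type word CCNCNCCC, which takes in the CACCC box read by the erythroid factor KLF1, was also found at 16 (26.2%), against 13.8% of all. This word is rich in GC, and it stood at 15 of 33 windows with at least 50% GC (45.5%, against 25.6% of all such windows) and at 1 of 28 windows below 50% (3.57%, against 6.00%). Without Ccnd3 it was at 9 of 43 (20.9%). The narrower word CCACACCC was found at 2 summits (3.28%), against 1.54%. A composite was also searched, CTG followed by 7 or 8 bases of any kind and then AGATAA or TGATAA, the spacing of joint sites of GATA1 and TAL1, whose matches overlap those of the GATA words. It was found at 5 summits (8.20%), against 7.54%. These 5 were the Ccnd3 summit at 47598318, the Cdk6 summits at 3354492 and 3512867, and both strong E2f4 summits. In the sequence of the strongest E2f4 summit it is the run CTGTGAGGCTTGATAA.

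The words of the cell cycle factors themselves were rare. The E2F words TTTGGCGC and TTTCGCGC were at 0 of 61 summits and at 0.149% of all, and the MYC word CACGTG was at 0 and at 2.26%. With 61 windows a count of 0 allows a share of up to 5.87% by the same interval, so at this number of windows a share below the background was not detectable. Only these exact E2F words were searched. A run that differs in its last base, such as tttggcgg in the Cdkn1a sequence shown above, was not counted. With 100 bases on each side the E2F words were at 2 summits (3.28%), against 0.361% of all, and CACGTG was at 1 (1.64%), against 4.35%. For p53, only CATG and CATG with exactly 10 bases of any kind between them was searched, and it was at 0 summits and at 0.156% of all. Pairs at any other spacing were not searched, including closer pairs with fewer than 10 bases between them. Both values therefore describe this spacing only and are not shares of p53 sites. They do not show whether p53 sites stood at the Cdkn1a summits or at any others. Of words read in hepatocytes, the CEBP word TTGCNNAA was at 3 summits (4.92%), against 8.93%, the FOXA words TGTTTAC and TGTTTGC were at 6 (9.84%), against 6.28%, and the HNF4 word CAAAGTCCA was at 0, against 0.738%. The STAT word TTCNNNGAA, of the kind read below the erythropoietin receptor, was at 1 summit (1.64%), against 4.95%. The rest, ETS (CCGGAAG), RUNX (TGTGGTT), CREB (TGACGTCA) and AP1 (TGANTCA), were at 1, 2, 0 and 2 summits, against 2.76%, 3.49%, 0.425% and 5.62% of all. A match is a description of the letters and does not show which protein was bound.

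**Figure D5:**
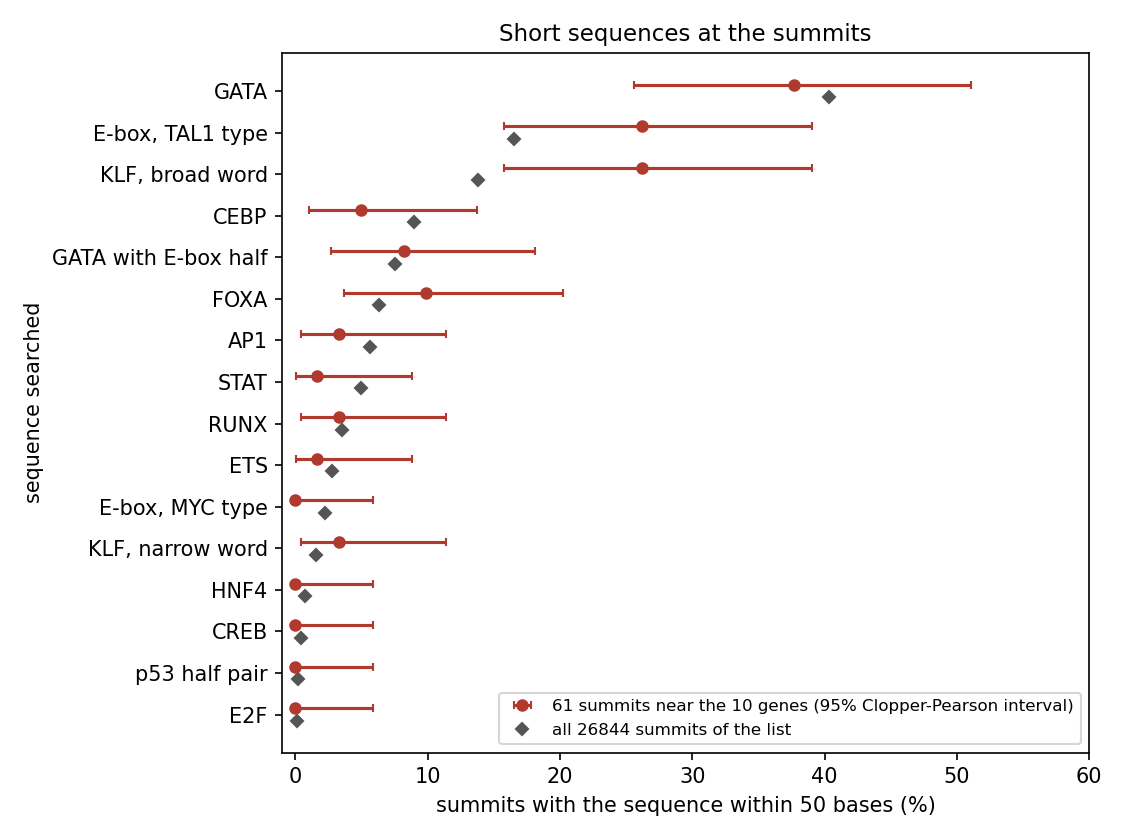
Share of summits with each sequence within 50 bases, in percent, for the 61 summits near the cell cycle genes (red, with 95% Clopper-Pearson intervals) and for all summits (grey). The GATA shares are 37.7% and 40.3%, and those of the broad KLF word 26.2% and 13.8%.

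Other genes of the cycle were read from 7 further lists, 67 genes in all. Of these 60 (89.6%) had a summit within 50 kb, against the background of 65.9% given above, with a median strongest summit of 98.5 and a median of 4 summits per gene. Some were neighbours and shared their strongest summit, as did Tk1 and Birc5 (220) and Ccnb1 and Cdk7 (111), so the genes are not all separate loci. All 13 replication genes had one. The highest were 409 near Mcm2, 406 near Mcm7 and 279 near Cdt1, whose products load or form the replicative helicase, but the nearest genes of these summits were Tpra1, Taf6 and Piezo1. Of 10 mitosis genes 9 had one, with 285 near the proliferation marker Mki67, 225 near the topoisomerase gene Top2a and 222 near the kinase gene Aurka (nearest gene Fam210b), and Foxm1 had none. Of 11 other cyclin and CDK genes 10 had one, led by Ccne1 (215), Ccne2 (131, 43.6 kb away and nearest to Trp53inp1) and Ccnb1 (111, nearest to Cenph), and Ccnh had none. Of 11 other E2F and retinoblastoma family genes 10 had one, led by the E2F partner Tfdp2 (206), Rb1 (129) and the repressor E2f7 (112), and E2f5 had none. All 8 checkpoint genes had one, led by the antiproliferative gene Btg2 (336), Gadd45a (206) and Gadd45b (123). Of 10 genes of the MYC network 9 had one, led by the MYC antagonist Mxd1 (317, 23.1 kb away and nearest to Asprv1), the partner gene Max (248) and Mlx (161, 23.4 kb away and nearest to Naglu), and Mycn had none. Of 4 other CDK inhibitors 1 had a summit, Cdkn2d with 79.3 (26.0 kb away and nearest to Atg4d), and Cdkn1c, Cdkn2a and Cdkn2b had none. The inhibitors among the 10 genes, Cdkn1a, Cdkn1b and Cdkn2c, all had summits, so the low count depends on how the family was split between lists. With 4 genes this share is a description only.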

How the data were processed

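EP300 ChIP-seq of newborn mouse liver was analysed from peak lists on mm10, 5 in all. Per the file headers and the descriptions deposited with them, each was made from aligned reads and a control, 1 per replicate, 1 from both together, and 2 (optimal and conservative) filtered by the irreproducible discovery rate (IDR). No aligner, caller, IDR threshold or version is given in the sources used here. The authors' signal value has no stated scale and was compared within a list only, apart from a replicate ratio and correlation. The deposited IDR score reached 1000 in 38 of the 61 summits (62.3%) and in 55.5% of all.

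Summits on chromosomes 1 to 19, X and Y were used, 26844 of 26883, with 1-based coordinates. All peaks ended inside the reference on 21 of 21 chromosomes, and 0 columns belonged to other series. Genes came from GENCODE M21. A summit was called promoter within 1 kb of the start of a protein-coding transcript, otherwise exon, intron or intergenic by any GENCODE gene. A replicate peak matched when it overlapped by at least 1 base, taking the highest signal. The text names all 10 genes, the nearest gene of a summit where it was another, and of each further list up to 3 genes with the highest summit and any without one. The members and lists were chosen with earlier results of these data known. With 1 group of 2 replicates no test was run and no p-value is given. The functions were tested on simulated data. Python 3.11.15, numpy 2.4.6, pandas 2.3.3, scipy 1.17.1 and matplotlib 3.10.9 were used. Alternatives covered the distance, the IDR list, a signal cut, the assignment of summits, each replicate alone, the transcripts used and the motif window.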

Additional observations from a re-analysis of the deposited data

How the results depend on the processing

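The distance, the list and the assignment moved counts of summits more than counts of genes. The 61 summits became 31 within 10 kb, 38 in the stronger 50% of the list, and 36 where the listed gene had to be the nearest. The count of genes with a summit stayed between 7 and 9 under these and the other alternatives, such as 100 kb or the conservative list. Among all protein-coding genes the share was 65.9% within 50 kb and 41% within 10 kb. It was not computed under the other alternatives, so the steady count says little about these genes. Each replicate alone was taken as the strongest 26844 peaks of its list. The full replicate lists held peaks near Ccnd2 as well. The median signal of 43.9 (38.3 for all summits) was 68.6 in the stronger 50% of the list (63.7 for all). With each replicate alone, cut in this way, it was 13.3 (13.3 for all) without replicate 1 and 28.4 (26.5 for all) without replicate 2. The cause was not tested, and the sources give no common scale for the lists. The strongest summit of a gene lay at the same place for 7 of 9 genes without replicate 1, where those of E2f4 and Cdkn1b moved, for 8 without replicate 2, where that of Cdkn1b moved, and for 9 in the conservative list. The E-box share was 47.5% with 100 bases on each side (28.5% for all), and the GATA share 42.6% (52.0%). Leaving out Ccnd3 and counting 1 summit per group of overlapping peaks were chosen after seeing the data, and they gave medians of 42.0 and 45.9 over 43 and 55 summits. No paired analysis was possible because there is 1 group of 2 replicates and no second group. Depth is unknown, so an absent summit means only that the list held none.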
